A study of Mus musculus with 10 samples.

Results

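The genes described here encode the aminoacyl-tRNA synthetases, the enzymes that join each amino acid to its tRNA. They were chosen by symbol from the gene table of control and Trpm7 conditional knockout (cKO) muscle satellite cells (MuSCs), taking every symbol that ends in ars after an initial capital, with or without a 1, 2, l or l2, together with Farsa, Farsb and Eprs. This gave 38 of the 24620 entries of the table, 21 for cytosolic and 17 for mitochondrial enzymes. Symbols ending in 2 were taken as mitochondrial, except Tarsl2, which encodes a second cytosolic threonyl enzyme. MuSCs were sorted as YFP+ cells 3 days after cardiotoxin (CTX) injury of skeletal muscle, and each of the 10 libraries, 5 per genotype, was made from 3000 cells. Control cells came from Trpm7+/+; Pax7CreERT2/+; Rosa26YFP mice and Trpm7 cKO cells from Trpm7flox/flox; Pax7CreERT2/+; Rosa26YFP mice. All were adults of C57BL6 background, of both sexes, and both genotypes carried the Cre driver and the reporter. Tamoxifen was used to induce Cre, which the Pax7 locus drives, so that recombination is directed to Pax7-expressing cells. The study asked what the loss of TRPM7, a channel kinase that carries Mg2+, changes in activated MuSCs.

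Cells carry separate sets of these enzymes for the cytosol and the mitochondria, both encoded in the nucleus. Cytosolic enzymes charge the tRNAs that read nuclear mRNAs on cytosolic ribosomes, and mitochondrial enzymes charge the tRNAs of the mitochondrial genome, whose few mRNAs encode subunits of the respiratory chain. Kars and Gars serve both compartments through alternative forms of their products. The enzymes fall into class I and class II by the fold of the catalytic domain, and several cytosolic enzymes of both classes are held in a multi-synthetase complex by scaffold proteins. MuSCs leave quiescence after injury, grow and divide, and protein synthesis rises as they do so. Many cytosolic synthetase genes are known targets of ATF4, the transcription factor of the amino acid response, which binds the C/EBP-ATF response element with a C/EBP partner.

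The promoters of the members were searched for that element in the form TGATGNAA, on both strands, where the reverse complement reads TTNCATCA. The RefSeq promoter table of GRCm38.p6 held an entry, from 250 bases before to 50 bases after a gene's start, for 28 of the 38 members. The element was present in 5 of 14 cytosolic members with an entry (35.7%), in 0 of 14 mitochondrial members and in 1304 of all 32851 promoters (3.97%). Matches are shown because they divide the cytosolic members with an entry by a feature that does not depend on the RNA measurements. Capitals mark the element, 9 bases are given on either side, each line reads 5′ to 3′ on the strand of the gene, and Asns, a textbook target of ATF4, is added for comparison.
Aars, chr8:111033842-111033867, plus strand: cgggtcactTTTCATCAgagcgctct
Gars, chr6:55037962-55037987, plus strand: gctgcgctaTTTCATCAtgcaccggg
Tars, chr15:11399657-11399682, minus strand: ggagtcccgTTGCATCAgctggttag
Iars, chr13:49682128-49682153, plus strand: ctgtcagtaTTGCATCAcctccagac
Yars, chr4:129189897-129189922, plus strand: gagctcagcTGATGCAAcccgacggg
Asns, chr6:7693216-7693241, minus strand: ccagccacaTGATGAAActtcccgca
In these windows Tars, Iars and Yars shared the same letters, TTGCATCA or its reverse complement, while Aars and Gars read TTTCATCA, the reverse complement of the Asns element. A match is a description of letters and does not show that a factor binds there.

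The libraries differed in depth by genotype. Control libraries held between 914361 and 1097709 counts and Trpm7 cKO libraries between 205986 and 581121, without overlap (p = 0.00794 in a two-sided exact permutation test, the lowest value that 252 splits can give). Each count is a distinct molecule read at its 3′ end, so values were not divided by transcript length, and they are given below as normalized counts per 1000000 (CPM). Pax7, which defines MuSCs, was present in every library at 166 to 259 CPM in control and 265 to 557 CPM in Trpm7 cKO. Of 23 MuSC identity genes, which include Pax7, 19 were tested, and 10 were called higher and 3 lower, beside 24.6% and 24.1% of all genes tested. Their median log2 fold change was 0.72, and a scaling given below rests on these genes. Leukocyte markers were higher in Trpm7 cKO, with all 23 tested of the 31 listed called. Their summed level was 460 to 780 CPM in control and 1623 to 7213 CPM in Trpm7 cKO. Cd3e, Cd79a and Nkg7 were not tested, being at 0 in every control library and at no more than 2 raw counts in any Trpm7 cKO library. Ptprc, the pan-leukocyte CD45, lay at 4.02 to 15.5 CPM against 25.8 to 97.8 CPM. Markers of other cell types were higher as well, with 3 of 3 tested erythroid genes called (summed level 1.99 to 178 CPM in control and 146 to 3274 CPM in Trpm7 cKO), 2 of 2 endothelial genes (6.43 to 60.2 against 114 to 590 CPM) and 4 of 5 fibroadipogenic progenitor genes (988 to 2048 against 1582 to 3886 CPM). In sorted bulk cells, fewer cells of a type and less RNA per cell cannot be told apart. Trpm7 is counted at its 3′ end and the floxed exon is not named in the sources used here, so its log2 fold change of -0.09 (edgeR adjusted p = 0.723, 10 to 55 raw counts in Trpm7 cKO and 66 to 84 in control) does not test the deletion. Nothing in the labels says that the libraries came from separate animals, and Trpm7 cKO 4 and 5 share a number in their library names, so p-values measure the spread between these libraries, which may be in part technical.

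Synthetase RNAs were lower in Trpm7 cKO MuSCs as a share of all counts. Of the 38 members, 28 had enough counts to be tested, and 12 of these were called lower and 0 higher by edgeR's quasi-likelihood test at an adjusted p below 0.05. Across all 7753 genes tested, 24.1% were called lower and 24.6% higher, 48.7% in all. The lower calls made up 42.9% of the tested members. The log2 fold change was below 0 for 24 of the 28, compared with 50.3% of all genes tested, and its median was -0.49, compared with -0.01 over all genes tested. None of the 28 tested members reached the study's threshold of 1.5 on the log2 scale, which 3.53% of all genes passed downward and 8.49% upward. Normalized CPM was higher in every control library than in every Trpm7 cKO library for 11 of the 28 tested members (17.9% of all genes tested), and for 0 in the opposite order (16.6% of all genes tested). The 11 include Yars and Yars2, each with 1 raw count in Trpm7 cKO 5. Members made up 0.234% to 0.256% of all counts in control libraries and 0.130% to 0.205% in Trpm7 cKO libraries.

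The number of members called moved with the scaling, with a covariate and with depth. Scaling to the MuSC identity genes gave 19 lower members, with 34.9% of all genes called lower and the all-gene median at -0.40. Equal library sizes for equal cell numbers gave 27, with 66.6% of all genes called lower and the median at -1.15. Total counts alone gave 9, with 19.4% of all genes called lower and the median at 0.10. Between 24 and 25 of the 28 members lay below the median of all genes under each of these scalings. Leukocyte markers did not overlap between genotypes in summed level, so their mean level as a covariate cannot be separated well from genotype. With this covariate, 1 member stayed called and 1.81% of all genes were called lower. The log2 fold changes of 11 of the 12 called members stayed below 0. Nars was then at -0.89, Gars at -1.06, Iars2 at -1.06 and Hars2 at -2.05. Smaller differences than without the covariate were left for Yars2 (-0.97), Aars (-0.76), Lars2 (-0.64), Eprs (-0.46), Tars (-0.35) and Farsb (-0.33). Dars was at 0.013, and none of these members passed the test. With every library thinned to the smallest, 2 of 13 testable members were called. The part of depth and of RNA from leukocytes or the other marked cell types in the differences was not tested further.

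**Figure D1:**
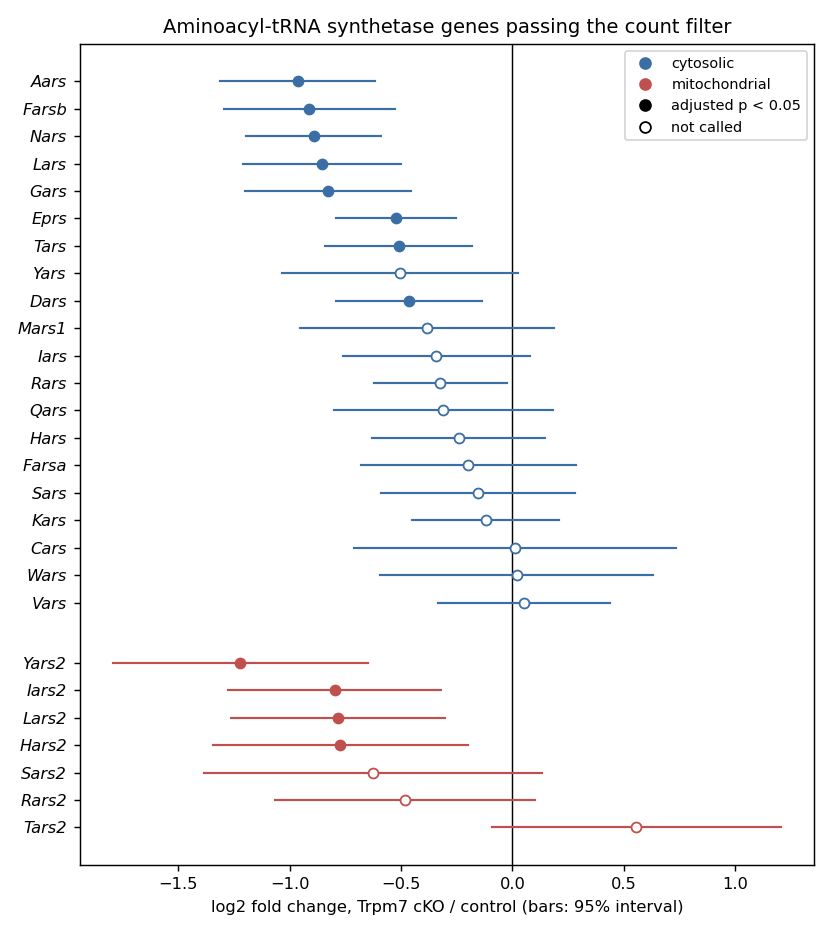
Log2 fold change of normalized counts, Trpm7 cKO over control, for 27 of the 28 tested members (horizontal axis, 5 libraries per genotype), with cytosolic members in blue and mitochondrial members in red. Bars are 95% intervals and filled points are the 12 members called at an adjusted p below 0.05, all of which lie left of 0, from -1.22 for Yars2 to -0.46 for Dars.

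Among the cytosolic enzymes, 8 of 20 tested members were called lower and 0 higher, with a median log2 fold change of -0.36. Their summed level was tight in control libraries, at 2195 to 2294 CPM, and lay at 1313 to 1748 CPM in Trpm7 cKO libraries. The mean over Trpm7 cKO libraries was 67.7% of the control mean. Class II enzymes held 6 of the 8 calls, out of 10 tested, and class I held 1 (Lars) out of 9 tested. Lower calls made up 40% of tested cytosolic members, 60% of class II and 11.1% of class I, beside 24.1% of all genes tested. Class I thus lay below the share of all genes. The remaining call was Eprs, whose product joins a class I glutamyl and a class II prolyl enzyme in a single chain. The difference between the classes was not tested.

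Eprs (GRCm38 chr1:185363044-185428360, plus strand) had the highest level of all members. It measured 346, 385, 395, 403.5 and 344 CPM in the 5 control libraries and 235, 263, 285, 280 and 237 CPM in the Trpm7 cKO libraries. Every Trpm7 cKO library lay below every control library, with a log2 fold change of -0.52 ± 0.13 (SE, n = 5 per genotype, edgeR adjusted p = 0.00223). Lars, the leucyl enzyme and a further subunit of the complex, measured 117, 124, 119, 135.5 and 135 CPM in control and 57.3, 57.1, 58.5, 94.4 and 82.8 CPM in Trpm7 cKO. The groups did not overlap, and the level fell by 0.86 ± 0.17 on the log2 scale (SE, edgeR adjusted p = 3.44e-04). Lars was the member that stayed called with the leukocyte covariate, which itself differed by genotype, at a log2 fold change of -1.64 (adjusted p = 0.0315). Dars, the aspartyl enzyme (chr1:128363707-128417368, minus strand), measured 119, 129, 161, 151 and 137 CPM in control and 122, 109, 91.3, 96.1 and 71.7 CPM in Trpm7 cKO. Only the highest Trpm7 cKO library reached into the control range, and the log2 fold change was -0.46 ± 0.16 (SE, edgeR adjusted p = 0.0188). The call of Dars was lost with total counts alone (-0.36, adjusted p = 0.0838) and without the 2 smallest libraries, Trpm7 cKO 3 and 5 (-0.35, adjusted p = 0.0906).

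These 3 genes were the called members among the 8 that encode enzymes of the multi-synthetase complex. The others were Iars, Mars1, Qars, Rars and Kars, whose log2 fold changes ran from -0.38 to -0.12 without passing the test. Rars, the arginyl enzyme, was nearest to the threshold, at 125 to 153 CPM in control and 88.3 to 128 CPM in Trpm7 cKO (log2 fold change -0.32, edgeR adjusted p = 0.0672). Kars, the lysyl enzyme, was at 92.0% of control with a 95% interval of 73.1% to 116%. The summed level of the 8 complex enzymes was 934 to 1085 CPM in control and 635 to 794 CPM in Trpm7 cKO. Outside the complex 5 of 12 tested cytosolic members were called lower, with a median log2 fold change of -0.37, beside -0.36 for the complex. Over all genes tested, 24.1% were called lower.

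Nars and Aars, the asparaginyl and alanyl enzymes, had the lowest p-values of the cytosolic members. Nars measured 328, 225, 278, 309 and 275.5 CPM in control libraries and 133, 151, 153.5, 167 and 160 CPM in Trpm7 cKO libraries. The Trpm7 cKO libraries lay close together at 153 ± 12.8 CPM (SD, n = 5), below the lowest control library, and at 53.9% of control in the fit (95% interval 43.7% to 66.4%, edgeR adjusted p = 4.16e-05). Aars (chr8:111033144-111057664, plus strand) measured 154, 114, 157, 135.5 and 111 CPM in control and 72.1, 68.1, 58.5, 79.5 and 55.2 CPM in Trpm7 cKO. It showed the largest cytosolic difference, to 51.2% of control (95% interval 40.3% to 65.2%, edgeR adjusted p = 8.11e-05). The last 500 bases of the annotated Aars transcript are shared in full with Exosc6 on the same strand, so reads there cannot be told apart. The gene table held no entry under the symbol Exosc6.

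Gars (chr6:55038007-55079500, plus strand), which charges tRNAs with glycine, measured 196, 167, 165, 155 and 171 CPM in control and 118, 86.5, 87.7, 119 and 44.1 CPM in Trpm7 cKO. The groups were apart and Trpm7 cKO 5, the smallest library with 8 raw counts for this gene, was the lowest (log2 fold change -0.83 ± 0.18, SE, edgeR adjusted p = 7.45e-04). Tars, the threonyl enzyme (chr15:11382301-11399665, minus strand), measured 200, 237.5, 202, 204 and 196 CPM in control and 135, 173, 110, 181 and 110 CPM in Trpm7 cKO. All control libraries were above all Trpm7 cKO libraries (log2 fold change -0.51 ± 0.16, SE, edgeR adjusted p = 0.0114). This call too was lost with total counts alone (-0.41, adjusted p = 0.0587) and without the 2 smallest libraries (-0.35, adjusted p = 0.0702). Both carry the element printed above, as does Aars.

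Phenylalanyl-tRNA synthetase is built of an alpha and a beta subunit. Farsb, the beta subunit (chr1:78417975-78488897, minus strand), measured 157, 151, 133, 132.5 and 132 CPM in control and 88.7, 97.5, 40.2, 76.2 and 49.7 CPM in Trpm7 cKO, without overlap (log2 fold change -0.91 ± 0.18, SE, edgeR adjusted p = 4.09e-04). Farsa, the alpha subunit, lay at 30.1 to 51.7 CPM in control and 24.0 to 44.2 CPM in Trpm7 cKO and was not called (log2 fold change -0.20 ± 0.23, SE, adjusted p = 0.510). The difference between the subunits was not tested. The final stretch of Farsb, 50% of its last 500 bases, overlaps Sgpp2 on the opposite strand, for which no library held more than 1 count.

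**Figure D2:**
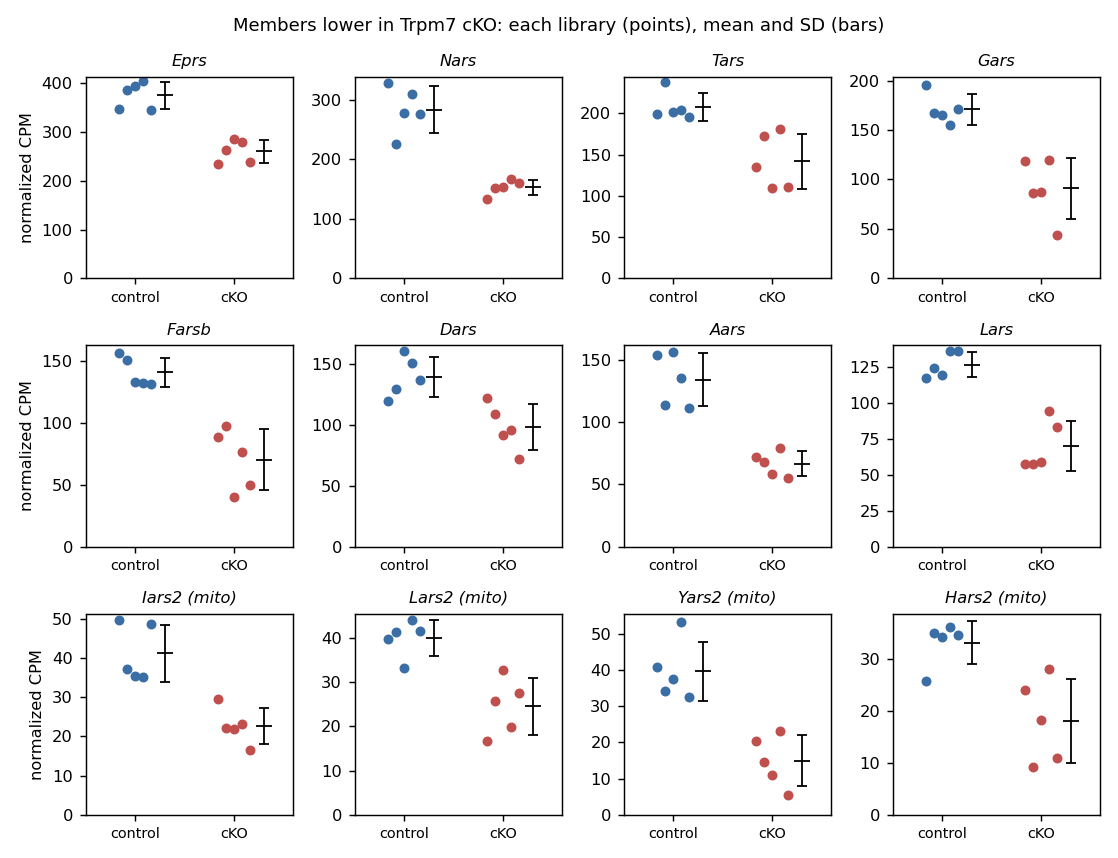
Normalized CPM (vertical axes, each starting at 0) of the 12 called members in each of 5 control (blue) and 5 Trpm7 cKO (red) libraries, with mean and SD as bars beside the points. The groups are apart in 10 panels, and in the panels of Dars and Hars2 at least 1 Trpm7 cKO library reaches the control range.

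The 12 tested cytosolic members that were not called had smaller or less certain differences. Yars, the tyrosyl enzyme, was the exception in order, since its 27.1 to 34.7 CPM in control did not overlap the 5.52 to 26.5 CPM in Trpm7 cKO, but its log2 fold change of -0.50 did not pass the test (edgeR adjusted p = 0.107). The 5.52 CPM is 1 raw count, and the Trpm7 cKO libraries alone did not have enough counts for the test. Mars1 (-0.38, methionyl), Iars (-0.34, isoleucyl), Qars (-0.31, glutaminyl), Hars (-0.24, histidyl) and Sars (-0.16, seryl) had log2 fold changes below 0 with adjusted p between 0.171 and 0.565. Vars (valyl), Wars (tryptophanyl) and Cars (cysteinyl) had log2 fold changes of 0.05, 0.02 and 0.01, and their sign turned to below 0 with scaling to the MuSC identity genes and with equal library sizes. Vars was at 104% of control with a 95% interval of 79.4% to 136%, Wars at 101% with 66.2% to 155% and Cars at 101% with 61.0% to 166%, so that falls of the size seen in Aars lay outside these intervals.

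The members with the element in their promoters, Aars, Gars, Tars, Iars and Yars, had a summed level of 580 to 640 CPM in control and 248 to 449 CPM in Trpm7 cKO. Of these 5, 3 were called lower and 0 higher, with a median log2 fold change of -0.51. The element was found in members that were called and in members that were not, and 4 of the 5 had control and Trpm7 cKO libraries that did not overlap. Iars, the exception, lay at 56.8 to 76.1 CPM in control and 33.1 to 68.4 CPM in Trpm7 cKO. Yars, among the 4 that were apart, had 1 raw count in Trpm7 cKO 5. Of all 20 tested cytosolic members, these 5 included, 8 were called lower and 8 had groups apart with control higher. Over all genes tested, the corresponding shares were 24.1% and 17.9%. Nars and Lars, both called lower, were among the cytosolic members without a promoter entry, so whether they carry the element is unknown. Members with and without the element were not compared in a test.

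Among the mitochondrial enzymes 8 of 17 members had enough counts to be tested. Of these, 4, Yars2, Iars2, Lars2 and Hars2, were called lower and 0 higher, beside 24.1% and 24.6% of all genes tested. The median log2 fold change was -0.78. The count filter can be met by the control libraries alone, which were deeper. Yars2 and Hars2, with 1 to 14 and 2 to 17 raw counts in Trpm7 cKO, passed it in this way. The calls and the median hold only for members that passed the filter. The summed level of all 17 was 281 to 300 CPM in control libraries and 166 to 237 CPM in Trpm7 cKO libraries, and the Trpm7 cKO mean was 69.8% of the control mean. These RNAs were scarce, and a member had at most 53 raw counts in any library. Counts from the mitochondrial genome, its ribosomal RNAs included, made up 12.04% to 16.5% of all counts in control and 8.82% to 10.6% in Trpm7 cKO. These shares are not of mRNAs alone. The ribosomal RNA mt-Rnr2 held 63856 to 90471 raw counts in control and 15397 to 32121 in Trpm7 cKO.

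Yars2, the mitochondrial tyrosyl enzyme (chr16:16302965-16309640, plus strand), showed the largest difference of the tested members. It measured 40.8, 34.1, 37.5, 53.2 and 32.4 CPM in control and 20.3, 14.7, 10.96, 23.2 and 5.52 CPM in Trpm7 cKO, the last value being 1 raw count. The groups did not overlap, and the level was 42.9% of control (95% interval 28.9% to 63.8%, edgeR adjusted p = 0.00103). Iars2, the mitochondrial isoleucyl enzyme (chr1:185284726-185329396, minus strand), measured 49.7, 37.2, 35.4, 35.1 and 48.6 CPM in control and 29.6, 22.1, 21.9, 23.2 and 16.6 CPM in Trpm7 cKO. Its groups were apart as well, with a log2 fold change of -0.80 ± 0.23 (SE, edgeR adjusted p = 0.00707). The last 500 bases of Iars2 overlap Rab3gap2 on the opposite strand in full, and the strand setting of the counting is not given in the sources used here. Rab3gap2 itself moved the other way, at a log2 fold change of 0.79 (adjusted p = 0.0174).

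Hars2, the mitochondrial histidyl enzyme, measured 25.9, 35.1, 34.3, 36.1 and 34.7 CPM in control and 24.0, 9.201, 18.3, 28.2 and 11.04 CPM in Trpm7 cKO. The lowest control library fell inside the Trpm7 cKO range, and the call (log2 fold change -0.77 ± 0.28, SE, edgeR adjusted p = 0.0254) was lost without Trpm7 cKO 2 (-0.55, adjusted p = 0.106), with total counts alone (-0.67, adjusted p = 0.0610) and without the 2 smallest libraries (-0.68, adjusted p = 0.0796). Among the tested members that were not called, Sars2 (-0.63, adjusted p = 0.164) and Rars2 (-0.48, adjusted p = 0.163) had values below 0. Tars2, the mitochondrial threonyl enzyme, was the exception among mitochondrial members at 10.04 to 21.9 CPM in control and 11.04 to 31.5 CPM in Trpm7 cKO, with a log2 fold change of 0.56 that did not pass the test (adjusted p = 0.147) and turned to -0.57 with equal library sizes.

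Lars2, the mitochondrial leucyl enzyme (chr9:123366927-123462666, plus strand), was examined apart for artefacts of 3′ reads, in particular for sequence shared with the abundant mitochondrial ribosomal RNAs. It had 40, 40, 31, 44 and 36 raw counts in control and 9, 14, 9, 12 and 5 in Trpm7 cKO. As normalized levels these were 39.8, 41.3, 33.2, 44.2 and 41.7 CPM against 16.6, 25.8, 32.9, 19.9 and 27.6 CPM. The highest Trpm7 cKO library lay just below the lowest control library, and the level was 58.1% of control (95% interval 41.7% to 81.0%, log2 fold change -0.78 ± 0.23, SE, edgeR adjusted p = 0.00806). Lars2 was not an outlier in level among mitochondrial members, since Iars2 and Yars2 reached like values in control libraries.

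The sequence of Lars2 held no stretch long enough to share reads with the ribosomal RNAs of the mitochondria. Over its 9 annotated transcripts the longest exact match to mt-Rnr2, the 16S RNA, was 12 bases and to mt-Rnr1, the 12S RNA, 14 bases, and 0% of its bases fell in shared stretches of 20. None of its last 500 bases occurred in another gene in stretches of 31, no other gene overlapped them, and the longest run of A was 6 bases. This check is of the annotated transcripts, and introns and nuclear ribosomal RNA were not examined. Against mt-Rnr2, Lars2 measured 4.74, 6.26, 4.30, 5.61 and 3.98 counts per 10000 mt-Rnr2 counts in control and 4.20, 5.45, 5.13, 3.74 and 3.25 in Trpm7 cKO. These ranges overlapped, and the mean log2 ratio differed by -0.20 (exact permutation test, two-sided, n = 5 per genotype, p = 0.294). The log2 fold change of mt-Rnr2 was -0.51 (edgeR adjusted p = 0.0628), with 65939 to 104734 CPM in control overlapping 39612 to 84967 CPM in Trpm7 cKO. Without Lars2, 3 of 7 tested mitochondrial members were called lower (24.1% of all genes tested), with a median log2 fold change of -0.77.

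**Figure D3:**
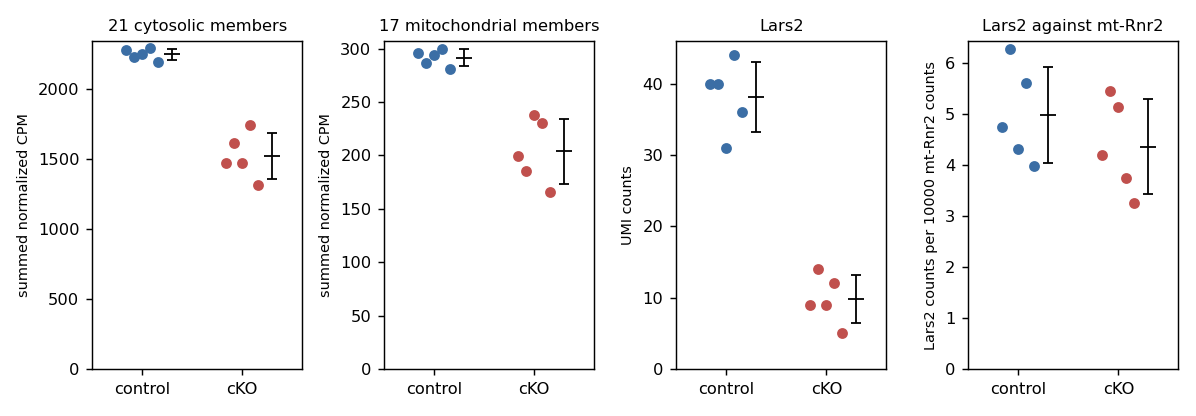
Values in each of 5 control (blue) and 5 Trpm7 cKO (red) libraries with mean and SD as bars, for the summed normalized CPM of the 21 cytosolic members, the summed normalized CPM of the 17 mitochondrial members, the raw Lars2 counts, and Lars2 counts per 10000 mt-Rnr2 counts. All vertical axes start at 0, and the groups are apart in the first 3 panels and overlap in the ratio to mt-Rnr2. The raw Lars2 counts are not corrected for depth, which differed by genotype. As normalized CPM, the lowest control library was at 33.2 and the highest Trpm7 cKO library at 32.9.

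Both enzymes for the same amino acid are compared in 7 cases. The mitochondrial log2 fold change was the lower in 5 of them, with differences down to -0.72 for tyrosine, where Yars was at -0.50 and Yars2 at -1.22. For leucine the 2 enzymes differed by 0.07, at -0.86 for Lars and -0.78 for Lars2. For threonine the order was opposite, with Tars at -0.51 and Tars2 at 0.56, a difference of 1.07. For histidine Hars2 was called and Hars was not, at -0.77 and -0.24. The differences within pairs were not tested. Yars2 (1 to 14 raw counts in Trpm7 cKO) and Hars2 (2 to 17) passed the count filter through the control libraries alone. The count of 5 includes both and gives no evidence of a difference between compartments.

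**Figure D4:**
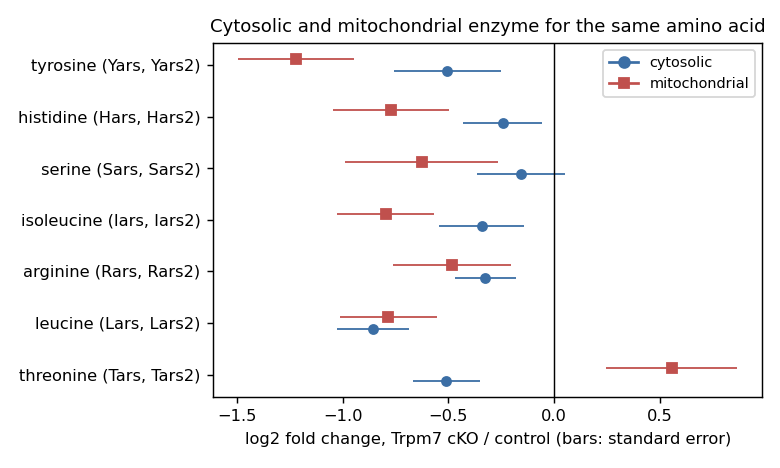
Log2 fold change, Trpm7 cKO over control (horizontal axis), of the cytosolic (blue circles) and mitochondrial (red squares) enzyme for each of 7 amino acids, with standard errors as bars. The mitochondrial point lies to the left of the cytosolic point for 5 amino acids, beside it for leucine and to the right for threonine. Yars2 and Hars2 passed the count filter through the control libraries alone.

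The 10 members with too few counts for the test were Aars2, Cars2, Ears2, Fars2, Mars2, Nars2, Pars2, Vars2 and Wars2 of the mitochondrial set and Tarsl2 of the cytosolic set. Most had raw counts of 10 or fewer in every library, with overlapping ranges of normalized CPM. Nars2, the mitochondrial asparaginyl enzyme, was apart from the rest with 10 to 29 raw counts in control and 0 to 4 in Trpm7 cKO, which is 10.3 to 31.1 CPM against 0 to 6.63 CPM. In a fit without the count filter its log2 fold change was -2.03 (edgeR adjusted p = 1.36e-04). Vars2 had 1 or 2 raw counts in each control library and 1 to 4 in each Trpm7 cKO library, and was called higher in that fit (2.07, adjusted p = 0.0249), although control libraries were all under a floor of 3 counts. Mars2, at 6 to 16 raw counts in control and 1 to 7 in Trpm7 cKO, was the only other member of this group to exceed 10 counts.

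Other genes of tRNA charging were examined as a list of 16 scaffold proteins, tRNA exporters, amidotransferase subunits and editing factors. Of these, 9 were tested, and 5 were called lower (55.6%, beside 24.1% of all genes tested) and 0 higher (24.6% of all genes tested). The median log2 fold change of the list was -0.73. The 3 with the lowest p-values were Eef1e1, Xpot and Sepsecs. Eef1e1, which encodes a scaffold of the multi-synthetase complex, lay at 169 to 208 CPM in control and 29.2 to 95.7 CPM in Trpm7 cKO (log2 fold change -1.46 ± 0.20, SE, edgeR adjusted p = 6.36e-06). Xpot, the exporter of tRNA from the nucleus, lay at 114 to 158 CPM against 51.2 to 101 CPM (-0.73, adjusted p = 0.00261). Sepsecs, which completes selenocysteine on its tRNA, lay at 16.1 to 27.9 CPM against 5.52 to 11.04 CPM (-1.18, adjusted p = 0.00468). Qrsl1 (-1.22, adjusted p = 0.00995) and Gatc (-0.75, adjusted p = 0.0155) were the other lower genes, and both encode subunits of the mitochondrial amidotransferase that makes glutaminyl-tRNA. Aimp1, a further scaffold of the complex, was not called (0.38, adjusted p = 0.0687), and the third scaffold, Aimp2, had at most 2 counts in any library. Qrsl1, Gatc, Aimp1 and Aimp2 were named after their values were seen.

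The amino acid response genes, a list of 24 that shares its regulator with many synthetase genes, went in both directions. Of 18 tested, 8 were called higher and 6 lower, with a median log2 fold change of 0.32. These shares are 44.4% and 33.3%, beside 24.6% and 24.1% of all genes tested. Atf3, a transcription factor induced by stress, lay at 34.1 to 63.7 CPM in control and 177 to 243 CPM in Trpm7 cKO (log2 fold change 2.18 ± 0.18, SE, edgeR adjusted p = 2.04e-08). Shmt2, which makes one-carbon units from serine in mitochondria, lay at 303 to 446 CPM against 75.8 to 138 CPM (-1.87, adjusted p = 9.05e-08), and Psat1, an enzyme of serine synthesis, at 575 to 1034 CPM against 66.2 to 199 CPM (-2.43, adjusted p = 9.09e-07). Named after their values were seen, Atf4 itself was higher at 340 to 473 CPM against 462 to 789 CPM (0.71, adjusted p = 0.00128), and Asns, whose element is printed above, was not called (-0.82, adjusted p = 0.131). ATF4 is controlled mainly at translation, and its protein was not measured in these libraries.

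Wars is known as a synthetase gene induced by interferon gamma, and a list of 15 genes of that response was therefore read beside it. All 11 tested were called higher, beside 24.6% of all genes tested, with a median log2 fold change of 1.91. The 3 with the lowest p-values were Irgm1, Irf1 and Cxcl10. Wars itself lay at 15.01 to 33.8 CPM in control and 18.2 to 38.6 CPM in Trpm7 cKO and was not called (log2 fold change 0.02 ± 0.29, SE, edgeR adjusted p = 0.965). Leukocyte markers, given above, moved with this list, and their part in it was not tested.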

How the data were processed

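Sorted MuSCs of 5 control and 5 Trpm7 cKO libraries were profiled with CEL-Seq2, which reads transcript 3′ ends and tags molecules with a unique molecular identifier (UMI). The authors extracted UMIs with UMI-tools 1.1.4, trimmed reads with Trim Galore 0.6.10, mapped them to GRCm38 with HISAT2 2.2.1, assigned them with featureCounts 2.0.6 and removed UMI duplicates, so the deposited values are raw counts per gene. Annotation release and strand setting are not given in the sources used here. The table's 24620 entries fell under 24608 symbols, and for the 12 symbols on a further line the entry with the larger total was used.

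Groups came from the sample labels. Counts were fitted with edgeR 4.0.16 in R 4.3.3 with genotype as the only term (filterByExpr with a minimum count of 10 and a minimum total of 15, TMM factors, robust quasi-likelihood F test, Benjamini-Hochberg adjustment over all 7753 genes), in place of the study's DESeq2 1.30.1, whose threshold of 1.5 on the log2 scale was also read. Library totals ran from 205986 to 1097709, and floors of 3 counts cover counting error only. Single values were compared by exact permutation of libraries. No test was made over the members. Members and gene lists were chosen with earlier results of these data known.

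One mitochondrial member and one promoter window are not reported here. Every other member is named, the 12 called members are given by library, and from the lists of tRNA charging partners, amino acid response and interferon gamma response genes the 3 with the lowest p-values are named, beside Trpm7, mt-Rnr2, Ptprc and Pax7. Outside this rule stand genes that overlap a member, leukocyte markers at 0, Asns for its promoter and the genes said to be named after their values were seen. Positions and 3′ sequence come from GENCODE M21 (GRCm38), where all 38 members were found, Mars1 through a synonym, and promoters from RefSeq. Replicate numbers are shared by both genotypes, but same-numbered libraries did not deviate together, and the libraries were not treated as pairs. Replicate libraries were not copies of each other (chi-square per degree of freedom 1.47 to 8.12 between libraries of the same genotype). Alternatives were DESeq2 1.42.0, other scalings and filters, thinning to equal depth, a leukocyte covariate, the summing of Trpm7 cKO 4 and 5, a replicate block, the study's fold threshold and each library left out. Leaving out the 2 smallest libraries together was added after seeing the data.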

Additional observations from a re-analysis of the deposited data

Results flagged for a closer look

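Each member's normalized CPM was examined within each genotype for a library far from the other 4. Of 62 groups of 5 libraries examined, 3 held such a library, and chance alone would mark about 1 in 20 groups. Control 1 was low for Hars2, at 25.9 CPM while the other control libraries lay between 34.3 and 36.1 CPM, and this value is the one that overlaps the Trpm7 cKO range. Control 2 was high for Tars, at 237.5 CPM beside 196 to 204 CPM in the others. Trpm7 cKO 4 was high for Vars, at 97.8 CPM beside 55.2 to 65.8 CPM.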

How the results depend on the processing

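DESeq2, RLE factors and the replicate block each gave the same 12 members lower, and no setting but the fit without a count filter called a member higher. Counts of cytosolic and mitochondrial members called lower, 8 and 4 as reported, became 1 and 0 with the leukocyte covariate, 2 and 0 after thinning, 0 and 0 beyond a log2 fold change of 1.5, and 20 and 7 with equal library sizes. MuSC identity scaling gave 7 mitochondrial members, and the fit without a filter called 1 higher. The cytosolic median (-0.36) became -0.79 with MuSC identity scaling, -0.56 without a filter, -1.49 with equal library sizes and -0.62 after thinning. The mitochondrial median (-0.78) became -1.16, -0.97 and -1.91 in the first 3 of these and had no value after thinning, where no mitochondrial member could be tested. All these medians were taken over members tested in the reported fit that were also tested in the setting named. After thinning these were 13 of the 20 cytosolic members, so -0.62 and -0.36 do not cover the same members. Members that failed its count filter do not enter them, also in the fit without a filter. The log2 ratio of the mean summed CPM (-0.56 cytosolic, -0.52 mitochondrial) became -0.93 and -0.88 with MuSC identity scaling, -1.67 and -1.65 with equal library sizes, and -0.70 for mitochondrial members after thinning. Over all genes, 1908 higher and 1866 lower calls became 399 and 140 with the covariate, 525 and 430 after thinning and 380 and 5162 with equal library sizes, and the higher calls became 992 with MuSC identity scaling and 2881 without a filter.

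The sign turned for members that were not called and for Dars. Cars (0.01) became -1.04 with the covariate, -0.34 with MuSC identity scaling, -0.18 without a filter, -1.14 with equal library sizes, -0.033 with the replicate block and -0.11 without the 2 smallest libraries. Vars (0.05) became -0.57, -0.30, -0.14 and -1.07 in the first 4 of these. Wars (0.02) became -0.42, -0.40, -0.18 and -1.16 in those, -0.18 without the 2 smallest libraries and -0.0063 with Trpm7 cKO 4 and 5 summed. With the covariate Dars became 0.013, Farsa 0.17, Iars 0.55 and Sars2 1.13, while the other 11 called members stayed below 0, and with equal library sizes Tars2 became -0.57. The causes were not tested.

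With each library left out in turn, 8 to 9 cytosolic and 4 to 6 mitochondrial members were called lower, the medians ran from -0.46 to -0.29 and from -0.81 to -0.72, and the ratio of Lars2 to mt-Rnr2 from -0.29 to -0.10 on the log2 scale. Between 11 and 12 of the 12 calls were kept, Hars2 being the one lost. Cars ran from -0.29 to 0.28, Vars from -0.17 to 0.13 and Wars from -0.12 to 0.16. Without the 2 smallest libraries 9 of the 12 calls were kept and Dars, Hars2 and Tars were lost, as they were with total counts alone. Same-numbered libraries correlated between -0.12 and 0.17, and 1 of 5 correlated best with its own number. The replicate block called 22.7% of all genes lower. Depth limits mitochondrial members most, since 9 of 17 could not be tested.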
